A study of Homo sapiens with 4 samples.

Results

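The genes of cholesterol synthesis and of its control by the SREBP transcription factors were followed in MDA-MB-231 cells after kahweol treatment and CTGF knockdown. The 28 genes were picked by symbol with earlier results of these data known, and the rule sets no threshold on their fold changes. They comprise 19 enzymes of the pathway, 5 SREBP factors and regulators, and 4 genes of sterol uptake, transport and receptor turnover. All 28 reached an average of 10 counts over the libraries, the minimum for a gene to be measured. The same held for 16599 of the 35993 genes in the table. MDA-MB-231 cells are an established triple-negative line of human breast cancer, in which vimentin is high and estrogen and progesterone receptors are lacking. CTGF (gene symbol CCN2) is a secreted matricellular protein, and kahweol is a coffee diterpene. The RNA-Seq held 4 libraries, 1 per condition: siControl cells without kahweol, siControl cells with 50 µM kahweol for 48 h, siCTGF cells without kahweol, and siCTGF cells with 50 µM kahweol for 48 h. According to the paper, transfected cells were held in serum-free medium before kahweol, and its RNA-Seq methods name no medium. Each siRNA arm rests on a single siRNA. Kahweol was dissolved in DMSO, and the other libraries are labelled untreated with no vehicle named, so kahweol and its solvent cannot be told apart. No condition had a replicate.

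Cells build cholesterol from acetyl-CoA through mevalonate, the prenyl diphosphates, squalene and lanosterol. Most enzymes of this route are transcribed under SREBP-2, a membrane-bound transcription factor of the endoplasmic reticulum (ER), while SREBP-1 acts mainly on fatty acid genes. When ER sterols are low, the escort protein SCAP carries the SREBPs to the Golgi, where proteases free their active part. When ER sterols are high, the INSIG proteins hold SCAP in the ER and the pathway's mRNAs decline. Oxidized sterols also act on LXR, a nuclear receptor that turns on sterol efflux genes and MYLIP, the E3 ubiquitin ligase that degrades lipoprotein receptors.

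Total counts were between 44781516 and 59129784 per library, and levels are given as CPM, counts scaled to a common library size with TMM. CCN2, the target of the knockdown, measured 159 CPM (siControl) and 63.6 CPM (siCTGF) without kahweol, and 186.5 and 31.8 CPM with it. VIM, the mesenchymal filament vimentin, was at 2549 to 3255 CPM. The mean count of ESR1 was 3.5 and that of PGR 17.5, while ERBB2 was at 52.6 to 74.8 CPM. Of the epithelial markers, KRT18 was at 324 to 408 CPM and KRT8 at 300 to 363 CPM. EPCAM was at 21.7 to 29.5 CPM and CDH1 at 6.62 to 10.4 CPM. Of the markers of other cell types, PTPRC, CD3E, PECAM1 and VWF had mean counts of 4, 1.75, 15.5 and 47.75. CD68, which tumour lines can also express, was at 40.6 to 60.6 CPM. The 10 genes with the most counts took 10.8% and 12.9% of all counts in the kahweol libraries of siControl and siCTGF cells, and 8.54% and 8.25% in the untreated ones. Mitochondrial rRNA took 4.33% and 6.01% of counts in the kahweol libraries of siControl and siCTGF cells, and 3.94% and 3.11% in the untreated ones. The part of these differences in the results was not tested, and totals-based scaling is given among the processing alternatives. In bulk RNA, fewer cells of a kind and less RNA per cell cannot be told apart.

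To see how kahweol affected the pathway, treated and untreated libraries were compared within siControl cells and, with no library in common, within siCTGF cells. Cholesterol synthesis mRNAs were lower after kahweol in both. Of the 28 genes, 17 had a fold change under 0.7 in siControl cells, against 26.3% of all measured genes, and 15 did in siCTGF cells, against 24.2%. The same 15 genes (53.6%) were under 0.7 in both, against 18.2% of all measured genes and 12.8% of those with a mean count of at least 1000. A fold change over 1.3 was reached by SC5D and MYLIP in siControl cells, against 28.1% of all genes, and by MYLIP alone in siCTGF cells, against 28.4%. MYLIP was thus the 1 gene over 1.3 in both, where 20.7% of all genes were. The median log2 fold change of the 28 genes was -0.72 in siControl and -0.69 in siCTGF cells, beside medians of -0.02 and -0.0034 over all measured genes. None of the 28 passed opposite thresholds in the 2 comparisons. Such opposite calls were also rare over all genes, at 382 of 16599, and at 2 of the 7885 with a mean count of at least 1000.

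Both kahweol libraries lay below both untreated ones for 20 genes, an order found for 37.1% of all measured genes. They lay above for 4 genes (SC5D, NPC1, NPC2 and MYLIP), beside 36.0% of all genes, and the groups overlapped for the remaining 4 (PMVK, GGPS1, SCAP and NSDHL). An additive fit over the 4 libraries, with siRNA as a covariate, tested the average effect of kahweol. At a Benjamini-Hochberg adjusted p under 0.05 in edgeR's quasi-likelihood test, taken over every measured gene, 20 of the 28 genes fell with kahweol and 3 rose. Over all genes, 23.6% fell and 22.9% rose. The fit leaves 1 residual degree of freedom, and any dependence of the kahweol effect on the siRNA enters it as error. Its p-values and SE rest on the spread between these libraries, with each gene's error drawn toward a trend over all measured genes. They do not measure the spread between repeated cultures, since nothing says that the cultures were repeated. The plot of kahweol fold changes sets both comparisons side by side along the pathway.

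**Figure D1:**
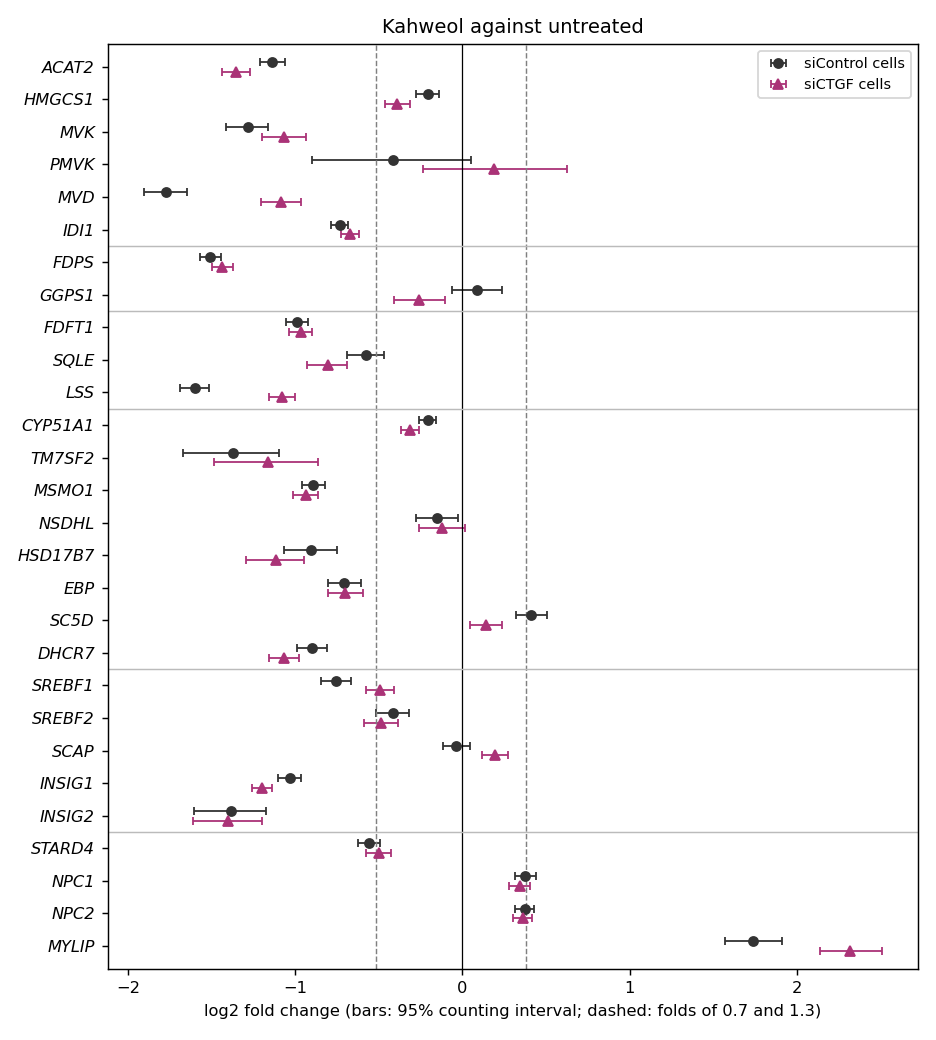
Log2 fold change of kahweol-treated over untreated libraries (x axis, TMM-scaled CPM) for the 28 genes in pathway order, with siControl cells as circles and siCTGF cells as triangles. Bars are 95% counting intervals, which cover counting error only, and grey lines part the role groups. Most enzymes, INSIG1 and INSIG2 lie left of the 0.7 line in both comparisons, and MYLIP lies far right at 1.74 and 2.32.

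Sequence features of the promoters were then read, because SREBPs act with the factors NF-Y and Sp1 at promoters of this family. RefSeq promoters (GRCh38.p14, 250 bases before to 50 after each start) were at hand for 25 of the 28 genes. ACAT2, FDFT1 and SQLE had no entry. The NF-Y box CCAAT, searched on both strands, occurred in 19 of the 25 genes, and in 39.7% of all 27305 genes with a promoter in the table. It occurred in 11 of the 12 genes that were under 0.7 in both kahweol comparisons and have a promoter here, and in 8 of the other 13. INSIG2 was the exception among the 12. The Sp1 box GGGCGG occurred in 24 of the 25 genes and in 48.3% of all genes. The E-box CACGTG occurred in 4 of the 25 (SCAP, INSIG1, SC5D and LSS) and in 8.77% of all. A sterol regulatory element core, TCACNCCAC on either strand, was found in SREBF2 alone, and in 1.39% of all genes. Its looser form TCANNCCAC, which contains the former, was found in SREBF2 and INSIG1 and in 4.74% of all genes. Genes with several starts had several windows and were counted once. The 27305 genes outnumber the 16599 measured, so this background includes genes that were not measured here. These matches describe letters and are not measured binding sites.

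The promoters below show SREBF2 and INSIG1 with the sterol element, FDPS and MVD among the enzymes that fell most, NSDHL with many CCAAT boxes and little change, and INSIG2, which fell without a CCAAT box. Capitals mark the sterol element in its looser form and CCAAT boxes on either strand (ATTGG where the box is on the opposite strand). Each is written 5′ to 3′ on the gene's strand.
SREBF2 (chr22:41832855-41833154, plus strand): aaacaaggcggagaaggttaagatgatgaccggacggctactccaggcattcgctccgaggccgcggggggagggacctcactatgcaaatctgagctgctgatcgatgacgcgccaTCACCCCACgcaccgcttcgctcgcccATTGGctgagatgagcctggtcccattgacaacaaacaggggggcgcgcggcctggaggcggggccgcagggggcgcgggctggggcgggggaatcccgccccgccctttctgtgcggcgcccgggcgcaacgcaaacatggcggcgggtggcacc
INSIG1 (chr7:155297628-155297927, plus strand): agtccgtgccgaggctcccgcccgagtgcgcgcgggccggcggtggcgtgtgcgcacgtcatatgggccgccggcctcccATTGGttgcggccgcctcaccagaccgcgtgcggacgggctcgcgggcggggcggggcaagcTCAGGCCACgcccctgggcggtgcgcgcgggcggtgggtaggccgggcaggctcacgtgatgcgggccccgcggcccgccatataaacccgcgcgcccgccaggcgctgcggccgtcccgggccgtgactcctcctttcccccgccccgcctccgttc
FDPS (chr1:155308616-155308915, plus strand): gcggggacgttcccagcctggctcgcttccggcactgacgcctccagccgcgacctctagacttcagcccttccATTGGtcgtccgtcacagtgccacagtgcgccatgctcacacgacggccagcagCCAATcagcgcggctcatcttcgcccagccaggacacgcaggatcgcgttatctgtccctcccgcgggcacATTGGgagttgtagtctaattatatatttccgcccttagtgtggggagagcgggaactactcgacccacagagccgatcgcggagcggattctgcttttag
MVD (chr16:88663042-88663341, minus strand): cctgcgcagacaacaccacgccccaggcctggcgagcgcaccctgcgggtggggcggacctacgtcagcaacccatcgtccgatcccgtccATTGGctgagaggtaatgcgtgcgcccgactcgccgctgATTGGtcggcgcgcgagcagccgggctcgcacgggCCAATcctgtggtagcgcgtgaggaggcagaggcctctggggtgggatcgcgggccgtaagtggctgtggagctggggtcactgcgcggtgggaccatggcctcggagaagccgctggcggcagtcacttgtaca
NSDHL (chrX:152830813-152831112, plus strand): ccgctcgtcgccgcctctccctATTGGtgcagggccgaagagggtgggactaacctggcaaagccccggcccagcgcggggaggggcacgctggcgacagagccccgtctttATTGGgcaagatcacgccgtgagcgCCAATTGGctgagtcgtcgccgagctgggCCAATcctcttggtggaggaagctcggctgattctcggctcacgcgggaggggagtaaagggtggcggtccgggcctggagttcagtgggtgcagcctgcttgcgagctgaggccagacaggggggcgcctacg
INSIG2 (chr2:118088221-118088520, plus strand): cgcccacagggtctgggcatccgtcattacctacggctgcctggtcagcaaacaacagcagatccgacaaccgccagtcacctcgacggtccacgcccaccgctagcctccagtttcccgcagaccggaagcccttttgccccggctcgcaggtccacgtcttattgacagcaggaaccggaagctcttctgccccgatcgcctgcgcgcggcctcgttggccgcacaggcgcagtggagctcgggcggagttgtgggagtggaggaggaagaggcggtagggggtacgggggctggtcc
In SREBF2 the sterol element TCACCCCAC began 133 bases before the start, with a CCAAT box 106 bases before it. In INSIG1 the element TCAGGCCAC began 108 bases before the start and the E-box 55 bases before it. FDPS and MVD each held 3 CCAAT boxes. NSDHL held 5, and its log2 fold changes with kahweol were -0.15 and -0.12, so the number of these boxes did not order the size of the change among the genes printed.

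The mevalonate steps turn acetyl-CoA into the activated isoprene units. Of their 6 measured enzymes, 5 fell with kahweol in the additive fit and 4 were under 0.7 in both comparisons. Over all measured genes, 23.6% fell in the fit and 18.2% were under 0.7 in both. The first is ACAT2, the cytosolic thiolase that joins acetyl-CoA units (gene ID 39, chr6:160183077-160200144 on GRCh37, plus strand). Its level was 198 CPM in siControl and 186 CPM in siCTGF cells without kahweol, and 90.05 and 72.7 CPM with it. Both treated libraries were far below both untreated ones, and the fitted log2 fold change was -1.25 ± 0.09 (SE; edgeR's quasi-likelihood test, adjusted p = 7.37e-05). ACAT2 overlaps SOD2 and TCP1 on the opposite strand, whose mean counts were 296% and 392% of its own and whose log2 fold changes were above 0 in both comparisons (0.54 and 0.73 for SOD2, 0.24 and 0.14 for TCP1). The strand setting of the counting is not stated, so shared reads cannot be told apart.

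HMGCS1, the HMG-CoA synthase of the next step, moved less, from 139 and 136 CPM in siControl and siCTGF cells to 121 and 104 CPM with kahweol. Its fitted log2 fold change was -0.30 ± 0.09 (SE; edgeR's quasi-likelihood test, adjusted p = 0.0254), and neither comparison passed 0.7. MVK, mevalonate kinase, was at 75.5 and 62.1 CPM without kahweol and at 31.0 and 29.6 CPM with it, log2 fold changes of -1.29 and -1.07. PMVK, the kinase that follows, was at 2.66 to 4.06 CPM. By TPM it ranked 19 of the 19 enzymes in 3 libraries and 18, above TM7SF2, in siCTGF cells with kahweol. Its counting intervals held 0 in both comparisons (-0.90 to 0.05 in siControl cells and -0.24 to 0.62 in siCTGF cells), so no change was detectable at its depth of 115 to 223 counts.

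MVD, the decarboxylase that makes isopentenyl diphosphate (gene ID 4597, chr16:88718348-88729499 on GRCh37, minus strand), measured 94.8 and 76.2 CPM without kahweol in siControl and siCTGF cells. With kahweol it measured 27.7 and 36.0 CPM. Its log2 fold change in siControl cells was the lowest of all 28 genes, at -1.77 (95% counting interval -1.90 to -1.65), and it was -1.08 (-1.20 to -0.97) in siCTGF cells. IDI1, the isomerase of the isoprene units, was at 337 and 302 CPM without kahweol and at 202 and 190 CPM with it. Its log2 fold changes of -0.73 and -0.67 were among the smallest that passed 0.7 in both comparisons. IDI1 overlaps WDR37 on the opposite strand, whose mean count was 14.4% of its own and whose log2 fold changes were 0.93 and 0.83.

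**Figure D2:**
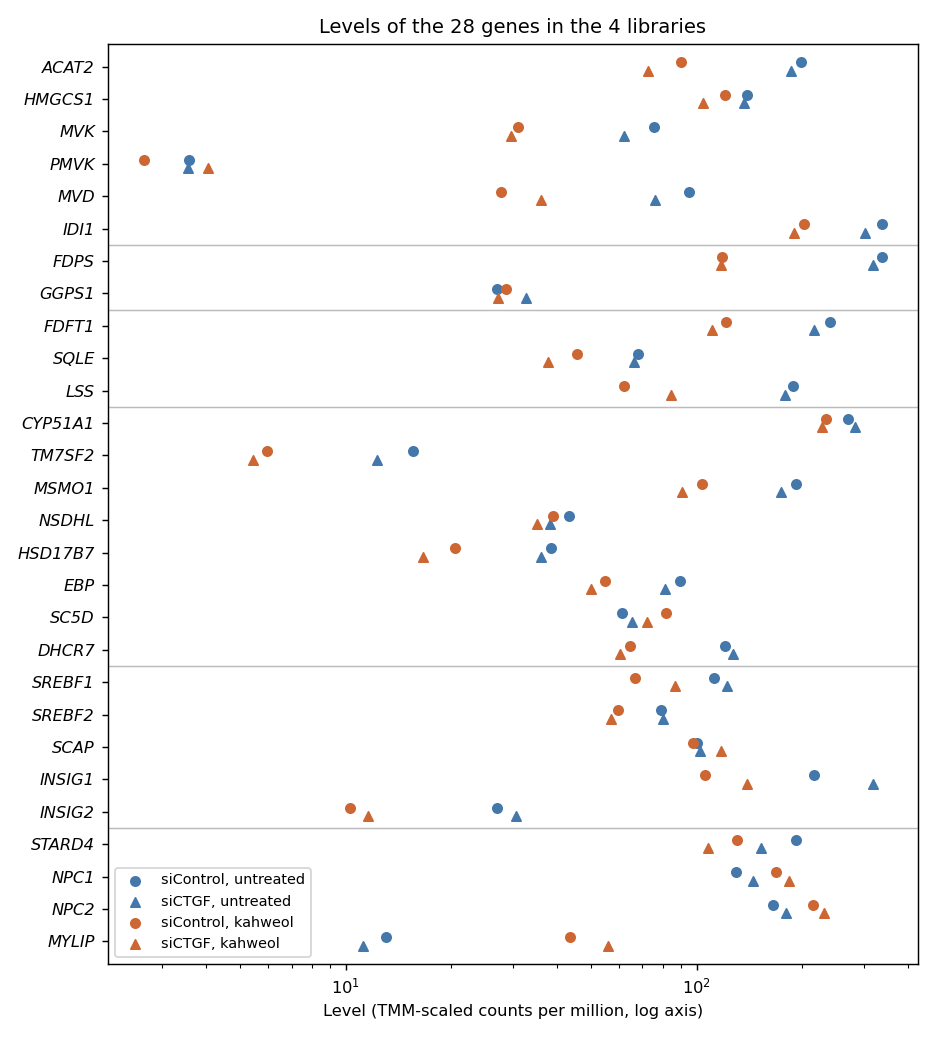
Levels of the 28 genes in TMM-scaled CPM (x axis, log scale) in pathway order, 1 point per library. Blue points are untreated and orange points kahweol-treated, with circles for siControl and triangles for siCTGF. For 20 genes both orange points lie left of both blue ones, and for SC5D, NPC1, NPC2 and MYLIP they lie right.

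At the prenyl diphosphate branch the pathway splits toward sterols and toward protein prenylation. FDPS, farnesyl diphosphate synthase (gene ID 2224, chr1:155278539-155290457 on GRCh37, plus strand), was the most abundant enzyme per length in every library. Its TPM was 552 in siControl and 503 in siCTGF cells without kahweol, and 165 and 152 with it. In CPM it went from 337 and 318 to 118 and 117. The treated libraries were close together and far below the untreated ones, and the fitted log2 fold change of -1.47 ± 0.07 (SE) had the lowest p of the 28 genes (edgeR's quasi-likelihood test, adjusted p = 3.17e-05). GGPS1, which makes geranylgeranyl diphosphate for prenylation, was at 26.9 and 32.5 CPM without kahweol and at 28.6 and 27.2 CPM with it. The conditions overlapped, and it did not pass the test (edgeR's quasi-likelihood test, adjusted p = 0.573). GGPS1 overlaps ARID4B on the opposite strand, whose mean count was 313% of its own and whose log2 fold changes were 1.23 and 1.5.

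The steps from squalene to lanosterol commit the route to sterols. Their 3 enzymes were all under 0.7 in both comparisons, beside 18.2% of all measured genes. FDFT1, squalene synthase, was at 240.2 and 216 CPM without kahweol and at 121 and 111 CPM with it. Its log2 fold changes of -0.99 and -0.97 were nearly equal in siControl and siCTGF cells. SQLE, squalene epoxidase, was at 67.8 and 66.1 CPM without kahweol and at 45.5 and 37.8 CPM with it, log2 fold changes of -0.58 and -0.81. LSS, lanosterol synthase (gene ID 4047, chr21:47608360-47648738 on GRCh37, minus strand), was at 188 and 179 CPM without kahweol. With kahweol it was at 62.0 and 84.7 CPM, log2 fold changes of -1.60 and -1.08. All 3 fell in the additive fit, beside 23.6% of all measured genes (edgeR's quasi-likelihood test, adjusted p = 9.15e-05 for FDFT1, 0.00114 for SQLE and 0.000181 for LSS).

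Of the 8 enzymes that turn lanosterol into cholesterol, 5 were under 0.7 in both comparisons and 6 fell in the additive fit. Over all measured genes these shares were 18.2% and 23.6%. MSMO1, a methylsterol monooxygenase, was at 192 and 174 CPM without kahweol and at 103 and 91.1 CPM with it. DHCR7, the reductase that makes cholesterol from dehydrocholesterol, was at 120.3 and 127 CPM without kahweol and at 64.6 and 60.5 CPM with it. The log2 fold changes in siControl and siCTGF cells were -0.89 and -0.94 for MSMO1 and -0.90 and -1.07 for DHCR7. EBP, a sterol isomerase, was at 89.7 and 81.3 CPM without kahweol and at 55.0 and 50.1 CPM with it. HSD17B7, a keto-sterol reductase, was at 38.4 and 35.9 CPM without kahweol and at 20.5 and 16.5 CPM with it. The transcribed pseudogene HSD17B7P2 had a mean count 10.2% of that of HSD17B7, so some of its reads may be shared.

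TM7SF2, a sterol reductase, was at 15.5 and 12.3 CPM without kahweol and at 5.98 and 5.45 CPM with it, log2 fold changes of -1.37 and -1.17. It is uncertain, because VPS51 overlaps it on the same strand with a mean count 964% of its own. VPS51 itself had log2 fold changes of -0.14 and 0.14. ZNHIT2 overlaps TM7SF2 on the opposite strand, with a mean count 98.3% of that of TM7SF2. The other 3 enzymes of this stretch were not under 0.7 in either comparison. CYP51A1, lanosterol demethylase, went from 270.3 and 282 CPM to 234 and 227 CPM with kahweol, and the additive fit called it at a log2 fold change of -0.26 ± 0.07 (SE; edgeR's quasi-likelihood test, adjusted p = 0.0200). NSDHL, a sterol dehydrogenase, was at 35.1 to 43.2 CPM in the 4 libraries and did not pass the test (edgeR's quasi-likelihood test, adjusted p = 0.240). SC5D, a sterol desaturase, was at 61.5 and 65.6 CPM without kahweol and at 81.8 and 72.3 CPM with it. Its fold change of 1.33 in siControl cells was over 1.3, that in siCTGF cells was 1.1, and it did not pass the test (edgeR's quasi-likelihood test, adjusted p = 0.0641).

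Per length, the summed TPM of the 19 enzymes was 2427 in siControl cells and 1081 in siControl cells with kahweol, 44.5% of the former. In siCTGF cells it was 2182 without and 956 with kahweol, 43.8% of the untreated level. Kahweol left 31.6% of the summed TPM of the prenyl diphosphate branch in both comparisons, most of it FDPS. It left 43.3% and 43.6% of that of the mevalonate steps, 41.3% and 42.5% of that from squalene to lanosterol, and 56.9% and 53.7% of that from lanosterol to cholesterol. These shares depend on the scale. On log2(TPM + 0.1), the median log2 fold change of all measured genes with kahweol was -0.24 in siControl and -0.25 in siCTGF cells. In TMM-scaled CPM it was -0.02 and -0.0034. The CPM fold changes of FDPS were 0.35 and 0.37, so losses with kahweol read larger in TPM. Within each library, the order of levels also shifted. Among the 19 enzymes, CYP51A1 ranked 5 by TPM in both untreated libraries and 2 in both kahweol libraries. ACAT2 ranked 2 in both untreated libraries, and 4 and 5 with kahweol.

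**Figure D3:**
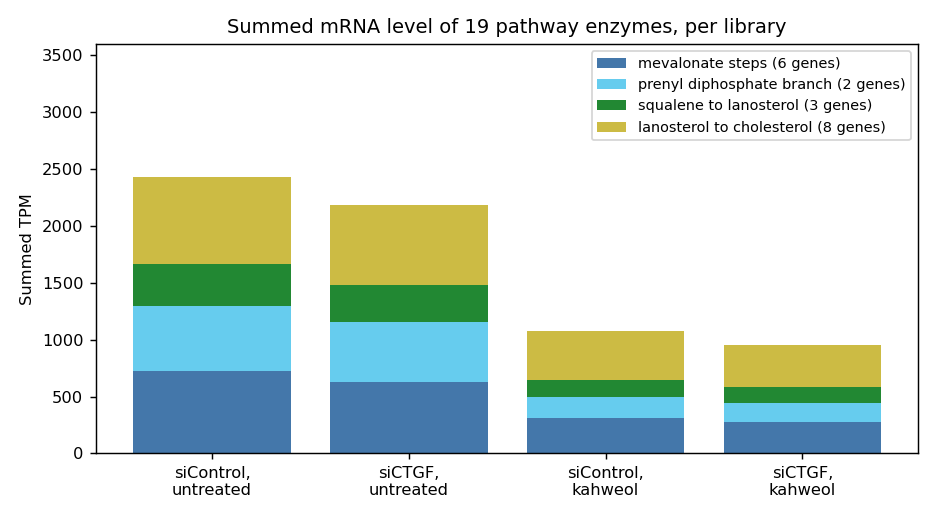
Summed TPM (y axis, from 0) of the 19 pathway enzymes in each of the 4 libraries, stacked by stretch of the pathway. The bars stand at 2427 and 2182 without kahweol and at 1081 and 956 with it for siControl and siCTGF cells, 1 library each and so without error bars.

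The SREBP factors and regulators were examined next. SREBF2, which encodes SREBP-2 (gene ID 6721, chr22:42229109-42303309 on GRCh37, plus strand), was at 79.4 and 79.9 CPM without kahweol and at 59.5 and 57.0 CPM with it. SREBF1, which encodes SREBP-1 (gene ID 6720, chr17:17714648-17740325 on GRCh37, minus strand), was at 112 and 122 CPM without kahweol and at 66.5 and 86.9 CPM with it. Treated libraries were below untreated ones for both genes, and both fell, by 0.45 ± 0.09 (SE) for SREBF2 and 0.62 ± 0.10 (SE) for SREBF1 on the log2 scale (edgeR's quasi-likelihood test, adjusted p = 0.00599 and 0.00176). SREBF1 overlaps RAI1 on the opposite strand, whose mean count was 23.8% of its own. SCAP, the escort protein, was at 99.9 and 102 CPM without kahweol and at 97.4 and 117 CPM with it. The conditions overlapped, and SCAP did not pass the test (edgeR's quasi-likelihood test, adjusted p = 0.523).

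Both INSIG genes, which hold SCAP in the ER, fell. INSIG1 (gene ID 3638, chr7:155089482-155101945 on GRCh37, plus strand), itself a known SREBP target, measured 216.5 (siControl) and 319 CPM (siCTGF) without kahweol, and at 106 and 139 CPM with it. INSIG2 (gene ID 51141, chr2:118845994-118868573 on GRCh37, plus strand) was at 26.9 and 30.6 CPM without kahweol and at 10.3 and 11.6 CPM with it. Treated libraries were lower by more than the difference between siRNAs for both genes. The log2 fold changes were -1.03 and -1.20 for INSIG1 and -1.38 and -1.40 for INSIG2, in siControl and siCTGF cells (edgeR's quasi-likelihood test, adjusted p = 7.28e-05 and 9.91e-05).

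Among the genes of uptake, transport and receptor turnover, MYLIP (gene ID 29116, chr6:16129317-16148479 on GRCh37, plus strand) went against the enzymes. It measured 13.0 (siControl) and 11.2 CPM (siCTGF) without kahweol, and at 43.5 and 55.8 CPM with it. The treated libraries were 3.33-fold and 4.98-fold above the untreated ones, and the fitted log2 fold change was 2.03 ± 0.15 (SE; edgeR's quasi-likelihood test, adjusted p = 7.33e-05). NPC1 and NPC2, which move cholesterol out of the lysosome, rose by small amounts in both comparisons. NPC1 was at 130 and 145 CPM without kahweol and at 168 and 184 CPM with it, and NPC2 at 165.5 and 179 without and 214 and 230.2 CPM with it. Their fold changes lay between 1.27 and the threshold of 1.3, and both passed the test (edgeR's quasi-likelihood test, adjusted p = 0.00663 and 0.00465). NPC1 overlaps RMC1 on the opposite strand, whose mean count was 31.0% of its own. STARD4, a cytosolic sterol carrier, fell with kahweol from 192 and 153 CPM to 131 and 108 CPM (edgeR's quasi-likelihood test, adjusted p = 0.00125).

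CTGF knockdown was compared in the same way. Without kahweol, INSIG1 was the 1 gene with a fold change over 1.3 in siCTGF against siControl cells, where 9.63% of all measured genes were, and none was under 0.7, where 8.99% were. With kahweol, 4 genes (14.3%) were over 1.3 (PMVK, LSS, SREBF1 and INSIG1), against 14.7% of all genes, and none was under 0.7, against 7.83%. All of the 28 but PMVK and TM7SF2 had a mean count of at least 1000. Among all genes at that depth, 2.97% were over 1.3 and 0.698% under 0.7 without kahweol. With kahweol these shares were 3.88% and 0.786%. The median log2 fold change of the 28 genes was -0.05 without and -0.07 with kahweol, beside -0.0071 and 0.0041 over all measured genes. For siCTGF, the additive fit in edgeR called none of the 28. Of all measured genes it called 0.0602% down and 0.0663% up. At an unadjusted p under 0.05 by edgeR, SREBF1 and INSIG1 were higher and STARD4 lower. Of the 16599 measured genes, 851 were higher and 794 lower at that level, so these 3 do not set the list apart. At an adjusted p under 0.05, DESeq2, limma-voom and RLE scaling in edgeR each called 1 of the 28 genes, INSIG1.

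INSIG1 was higher in siCTGF cells in both comparisons, by 0.56 on the log2 scale (95% counting interval 0.51 to 0.60) without kahweol and 0.39 (0.32 to 0.47) with it. Its fitted log2 fold change with siCTGF was 0.48 ± 0.08 (SE; edgeR's quasi-likelihood test, adjusted p = 0.113). STARD4 went from 192 to 153 CPM without kahweol and from 131 to 108 CPM with it. Its fitted log2 fold change with siCTGF was -0.30 ± 0.08 (SE; edgeR's quasi-likelihood test, adjusted p = 0.260). The summed TPM of the 19 enzymes in siCTGF cells was 89.9% of that in siControl cells without kahweol and 88.4% with it, a gap smaller than that with kahweol.

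**Figure D4:**
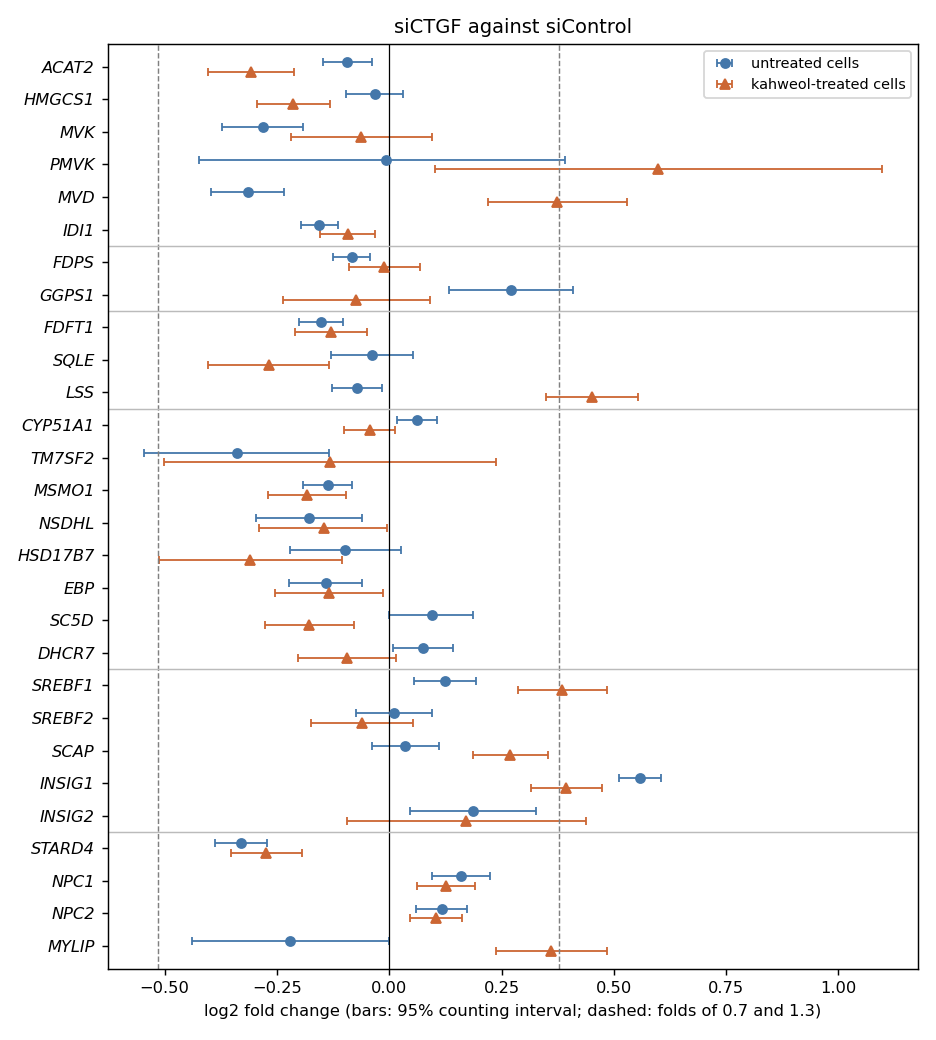
Log2 fold change of siCTGF over siControl libraries (x axis, TMM-scaled CPM) for the 28 genes in pathway order, with untreated cells as blue circles and kahweol-treated cells as orange triangles. Bars are 95% counting intervals. INSIG1 lies right of the 1.3 line in both comparisons, and no gene lies left of the 0.7 line.

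Whether the kahweol change differed between siControl and siCTGF cells could not be tested, since 4 libraries for 4 conditions leave no residual degree of freedom. As values, the difference of the log2 fold changes (siCTGF minus siControl) had a counting interval without 0 for 14 of the 28 genes, above 0 for 6 and below 0 for 8. These intervals cover counting error only and are narrow at high counts. The share over all measured genes was not taken, so the count shows nothing particular to these genes. The differences of MVD, MYLIP and LSS were 0.69 (0.52 to 0.86), 0.58 (0.33 to 0.83) and 0.52 (0.41 to 0.64). The kahweol log2 fold changes of MVD and LSS were nearer to 0 in siCTGF cells, and that of MYLIP was further from 0, with 1 library per condition. Of the differences below 0, those of GGPS1, SC5D, SQLE and ACAT2 were -0.35 (-0.56 to -0.13), -0.27 (-0.41 to -0.14), -0.23 (-0.39 to -0.07) and -0.22 (-0.32 to -0.11). The kahweol log2 fold changes of SQLE and ACAT2 were thus further below 0 in siCTGF cells. FDPS (0.07), FDFT1 (0.02), MSMO1 (-0.05), EBP (0.01) and INSIG2 (-0.02) had intervals that held 0.

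Other genes tied to the pathway were followed by lists. Of 12 measured fatty acid genes under SREBP-1, 7 (58.3%) were under 0.7 in both kahweol comparisons and 1 was over 1.3 in both, beside 18.2% and 20.7% of all measured genes. The additive fit called 9 of the 12 down and 1 up, beside 23.6% and 22.9% of all measured genes. The list medians were -0.58 and -0.76. ELOVL5 and ACSL3, named because they were above 0 in both comparisons without passing the test, had log2 fold changes of 0.20 and 0.18, and of 0.20 and 0.10. FASN, fatty acid synthase, had log2 fold changes of -1.38 in both comparisons, and SCD, the stearoyl-CoA desaturase, of -1.28 and -1.45. The desaturases FADS1 and FADS2 had -1.23 in both comparisons and -1.37 and -1.13. ME1, the malic enzyme that makes NADPH, was the exception over 1.3, at 0.59 and 0.44. It was also over 1.3 in siCTGF against siControl cells, at 0.58 without and 0.42 with kahweol.

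Of 9 measured genes of SREBP processing and turnover, the additive fit called 4 (44.4%) up and 2 (22.2%) down with kahweol. Over all measured genes these shares were 22.9% and 23.6%. In both kahweol comparisons 1 of the 9 (11.1%) was over 1.3 and 1 (11.1%) under 0.7, beside 20.7% and 18.2% of all measured genes. The list medians were 0.33 and 0.21. C12orf49, also called SPRING1 and needed for the protease that cleaves SREBPs, was over 1.3 in both comparisons with log2 fold changes of 0.98 and 1.00, while the ubiquitin-conjugating enzyme UBE2G2 was under 0.7 in both at -0.65 and -0.78. Of 6 LXR and efflux genes, none was over 1.3 in either kahweol comparison, beside 28.1% and 28.4% of all measured genes. The additive fit called 2 of the 6 (33.3%) down, beside 23.6% of all. ABCA1, the cholesterol exporter and LXR target, was under 0.7 in both at -0.56 and -1.12, opposite to MYLIP. Of 10 genes of sterol uptake, transfer and esterification, the additive fit called 1 (10.0%) up and 5 (50.0%) down, beside 22.9% and 23.6% of all measured genes. The oxysterol-binding protein OSBP had log2 fold changes of 0.84 and 0.69, and TMEM97, an ER protein that binds NPC1, of -0.58 and -0.85.

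Of 14 genes of isoprenoid use, the additive fit called 6 (42.9%) up and 5 (35.7%) down, beside 22.9% and 23.6% of all measured genes. The list medians were 0.23 and 0.10. In both kahweol comparisons 3 (21.4%) were over 1.3 and 2 (14.3%) under 0.7, near the 20.7% and 18.2% of all measured genes. Over 1.3 were RABGGTB, a prenyltransferase subunit, and RCE1 and ZMPSTE24, proteases that trim prenylated proteins. Their log2 fold changes were 0.51 and 0.49, 0.44 and 0.58, and 0.60 and 0.42. ICMT, which methylates prenylated proteins, and COQ2, of coenzyme Q synthesis, were under 0.7 in both (-0.88 and -1.08, and -0.99 and -0.69). Among 5 partners of the sterol enzymes, the additive fit called 3 (60.0%) down and none up, beside 23.6% and 22.9% of all measured genes. CYB5B, a cytochrome that passes electrons to such enzymes, had log2 fold changes of -1.03 and -1.22, and its reductase partner CYB5R3 of -0.52 and -0.68. The plot of list shares sets these lists beside all measured genes.

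**Figure D5:**
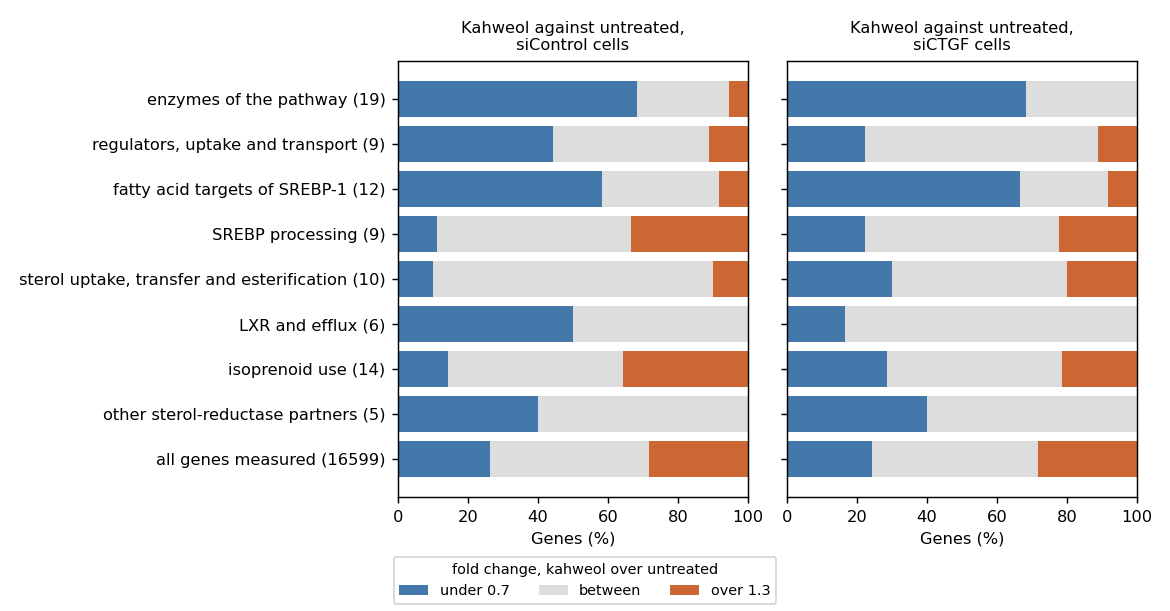
Share of genes (x axis, %) with a kahweol fold change under 0.7 (blue), between (grey) or over 1.3 (orange), per gene list with the number of measured genes in brackets, in siControl cells (left) and siCTGF cells (right). Blue covers 68.4% of the 19 enzymes in siControl and siCTGF cells, and 58.3% and 66.7% of the 12 fatty acid genes, beside 26.3% and 24.2% of all measured genes.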

How the data were processed

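The 4 conditions gave 1 library each, grouped by the sample labels. RNA was rRNA-depleted and sequenced as stranded, paired reads. According to the submitters' processing notes, FastQC 0.11.7, Trimmomatic 0.38, HISAT2 2.1.0, Bowtie2 2.3.4.1, StringTie 2.1.3b and GRCh37.p13 were used. The strand setting is not stated. The authors deposited counts of reads per gene as whole numbers without normalization. The FPKM and TPM deposited beside them are StringTie output. The deposited coverage signal is the mean depth per base. FPKM and coverage served only to check the counts, whose implied 104 to 106 bases per count match single reads, so intervals take 2 reads as 1 fragment. Levels between genes were compared in TPM, and the summed enzyme levels are in TPM too.

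Counts were TMM-scaled in edgeR 4.0.16 (R 4.3.3), keeping genes that averaged at least 10 counts. Log2 CPM used a prior count of 2. Fold changes between single libraries were counted over 1.3 and under 0.7, with 95% Clopper-Pearson counting intervals, which cover counting error only. The additive fit was edgeR's quasi-likelihood test with 1 residual degree of freedom and Benjamini-Hochberg adjusted p under 0.05. DESeq2 1.42.0, limma 3.58.1, other scalings, filters and thresholds were alternatives. The members and lists were chosen with earlier results of these data known. Members past the same threshold in both comparisons of 1 factor, and the SREBP regulators, are given in all 4 libraries, and each list has up to 4 genes named in each direction. Some genes of the pathway are not reported here.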

Additional observations from a re-analysis of the deposited data

How the results depend on the processing

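With 1 library per condition, the pairwise comparisons have no replicate check, and leaving out a library leaves the additive fit no residual degree of freedom, so no leave-one-out value was made. Replicates could not be paired, since each condition had 1 library, and the additive fit took the other factor as a covariate. The median log2 fold change of the 28 genes with kahweol was -0.85 by total count, -0.94 on log2(TPM + 1) and -0.95 on log2(TPM + 0.1) in siControl cells, and -0.84, -0.94 and -0.94 in siCTGF cells. These scalings moved the median of all measured genes by -0.13, -0.15 and -0.22 in siControl and by -0.15, -0.18 and -0.25 in siCTGF cells. The share of higher among all genes past a fold threshold went from 51.7% and 54.0% to 41.0% and 41.9% by total count, 33.9% and 33.8% on log2(TPM + 1), and 33.8% and 34.0% on log2(TPM + 0.1). Of 40 fold changes past a threshold over the 4 comparisons, 36 to 40 stayed past it under the 6 scalings, filters and prior counts tried, and none turned sign. NPC1 and NPC2 were above 0 under all of them, while PMVK, SC5D and SCAP in siCTGF cells and GGPS1 in siControl cells changed sign. For siCTGF without kahweol, 0 genes passed a fold of 1.5. For siCTGF with kahweol, 2 genes passed by total count, 1 on log2(TPM + 1), 2 on log2(TPM + 0.1) and 1 at a fold of 1.5, in place of 4. The additive fit for siCTGF called 1 gene, INSIG1, by RLE in edgeR, at a mean count of at least 50, by DESeq2 and by limma-voom (adjusted p = 0.0441, 0.0400, 0.00117 and 0.0431). Over all genes it called 21, and 75, 50, 128 and 60 under these, and 0 with no term for kahweol. For kahweol, SC5D was called at a mean count of at least 50 and by limma-voom, and HMGCS1 was lost with no term for siRNA. As an alternative chosen after seeing the data, the background of genes under 0.7 was 16.2% and 16.4% among those with a mean count of at least 1000. Low depth limits PMVK most.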
